A study of Mus musculus with 6 samples.

Results

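miR-877-3p, miR-1839-3p and miR-1983 are mouse miRNAs whose hairpins lie in a short intron, in a small Cajal body RNA and in a tRNA-like sequence. All 3 stand in the down-regulated miRNA list that was deposited for mouse renal tubular epithelial cells (mRTECs). They were taken from that list by name, and they make up 3 of the 55 distinct sequences of the up-regulated and down-regulated lists and 3 of the 1272 distinct sequences of the full raw table. The lists had been drawn up on these same libraries, so the tests below describe how far the groups stand apart and are not independent evidence of a difference.

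The study sequenced miRNA from C57BL/6 mRTECs in 6 libraries, 3 per group. All of the cells had been stimulated with TGF-β1 for 48 h, the main profibrotic cytokine of the kidney. One group was then co-cultured for 24 h with bone marrow mesenchymal stem cells (BM-MSCs) across a Transwell membrane, which lets soluble factors and vesicles pass while it keeps the cells apart, and the other group was kept without BM-MSCs. Nothing read here says that the replicates were separate cultures, and a p-value then covers the library-to-library spread, possibly a technical one. The deposited tables name the groups the other way round. In all 1089 entries of the normalized table, the mean headed MRTEC+MSC is that of the control-labelled libraries, and the mean headed MRTEC+TGF-beta is that of the co-culture-labelled libraries. Groups are therefore named by their sample labels throughout, as control-labelled and co-culture-labelled. The paper reports miR-146a-5p, from sequencing and RT-qPCR, as the miRNA raised most significantly by BM-MSCs. Scaled to library depth (RPM, defined below), it stood at 58.5, 52.5 and 49.4 in control-labelled replicates 1 to 3. In co-culture-labelled replicates 1 to 3 it stood at 2.14, 1.55 and 2.97. For this miRNA the paper's direction thus goes with the headings of the deposited tables and against the sample labels. Which naming is right was not settled, and every direction below turns round if the labels were exchanged.

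A canonical miRNA is cut from a long transcript by Drosha and then by Dicer, and 1 strand of the resulting duplex is loaded into an Argonaute protein. Noncanonical miRNAs skip the Drosha step or start from an RNA with another job. A mirtron is an intron so short that the spliced and debranched intron itself folds into the hairpin. Small Cajal body RNAs (scaRNAs) guide the chemical modification of spliceosomal RNAs and fold into stems that Dicer can cut. tRNAs and their precursors give fragments of miRNA size, some of which are loaded into Argonaute. Levels of such miRNAs thus depend on splicing, on the host RNA or on tRNA maturation as well as on transcription.

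The mature sequences of the members and of the opposite arms are given first, because the seed decides which transcripts a miRNA can pair with. They were read from the deposited tables, 5′ to 3′, with the seed (bases 2 to 8) in capitals.
miR-877-3p: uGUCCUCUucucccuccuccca
miR-877-5p: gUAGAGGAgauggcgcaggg
miR-1839-3p: aGACCUACuuaucuaccaacagc
miR-1839-5p: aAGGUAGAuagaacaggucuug
miR-1983: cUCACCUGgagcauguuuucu
The 3 members have different seeds. Among the 1738 mature mouse miRNAs of the RefSeq table (GRCm38.p6), the seeds of miR-877-3p and miR-1839-3p occur in no other miRNA, and the seed of miR-1983 is shared with miR-412-3p alone. miR-877-3p is nearly all pyrimidine, with C or U at 20 of its 22 bases (90.9%), and 1 of the 1738 has a higher share. The share is 56.5% in miR-1839-3p and 66.7% in miR-1983.

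The Mir877 hairpin is shown whole, with its first 2 and last 2 bases in capitals, because these are the splice sites of an intron.
Mir877 hairpin: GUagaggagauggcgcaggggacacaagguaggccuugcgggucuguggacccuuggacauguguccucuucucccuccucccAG
It lies at chr17:35960730-35960814 on the minus strand of GRCm38. In GENCODE M21 it fills, base for base, the 85-base intron of Abcf1 between exon 12 (chr17:35960815-35960954) and exon 13 (chr17:35960581-35960729). Abcf1 encodes an ATP-binding protein that acts with eIF2 in translation initiation. Of the 1005 mouse hairpins of the RefSeq table, 16 (1.59%) fill an annotated intron exactly, and 30 (2.99%) begin with GU and end with AG. miR-877-5p (chr17:35960795-35960814) begins at the 5′ splice site, and miR-877-3p (chr17:35960731-35960752) covers the pyrimidine-rich tract that precedes the 3′ splice site and stops 1 base short of the intron's end.

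The scaRNA from which the miR-1839 arms come is shown with its ACA box in capitals, the motif that ends RNAs of the H/ACA type.
Mir1839 scaRNA: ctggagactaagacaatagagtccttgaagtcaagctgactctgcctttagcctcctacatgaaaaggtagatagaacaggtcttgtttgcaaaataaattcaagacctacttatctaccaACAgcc
GENCODE M21 annotates this RNA of 127 bases at chr7:81529855-81529981 on the plus strand, inside an exon (chr7:81529347-81530146) of the noncoding gene 2900076A07Rik. The letters ACANNN, searched on the transcript strand at the 3′ end, close 301 of the 1558 annotated mouse snoRNA and scaRNA transcripts (19.3%), this RNA included. The RefSeq hairpin (chr7:81529916-81529988) covers its 3′ stem and runs 7 bases past its end. miR-1839-5p (chr7:81529919-81529940) and miR-1839-3p (chr7:81529958-81529980) are the 2 sides of that stem, and miR-1839-3p contains the ACA box and stops 1 base before the end of the scaRNA. Of the 1005 hairpins, 14 (1.39%) overlap an annotated snoRNA or scaRNA on the same strand.

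The Mir1983 hairpin is shown because it has the letters of a tRNA gene's internal promoter, the B box, which are in capitals.
Mir1983 hairpin: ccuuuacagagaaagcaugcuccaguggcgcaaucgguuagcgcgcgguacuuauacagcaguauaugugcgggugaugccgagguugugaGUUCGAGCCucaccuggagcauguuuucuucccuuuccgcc
It lies at chr13:21896918-21897049 on the minus strand. It overlaps no snoRNA or scaRNA of GENCODE M21 on that strand, and tRNA genes were not looked up there. The letters searched, GUUCGANNC, occur on the printed strand in 5 of the 1005 hairpins (0.498%) and on the other strand in 1. The longest stretch in which the hairpin can pair with itself joins bases 9 to 25 with bases 105 to 121, through 17 pairs of which 2 are G-U. In a tRNA the 5′ and 3′ ends likewise pair, as the acceptor stem. miR-1983 (chr13:21896930-21896950) is bases 100 to 120 of the hairpin. Its first base is the last base of the B box letters, and 16 of its 21 bases lie in the paired stretch.

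**Figure D1:**
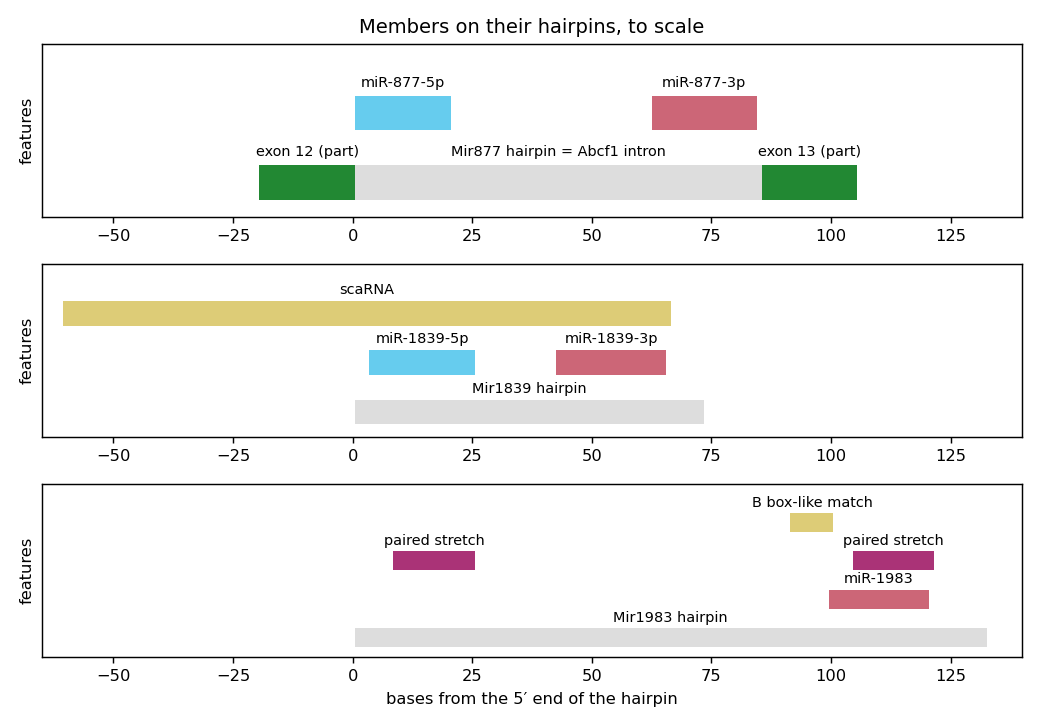
Members and opposite arms drawn to scale on their hairpins, with the distance from the 5′ end of the hairpin in bases on the x axis and 1 row per feature. The Mir877 hairpin of 85 bases abuts exons 12 and 13 of Abcf1, both miR-1839 arms lie inside the scaRNA, and miR-1983 overlaps the 3′ paired stretch of its hairpin.

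The 6 libraries held 2873703 to 4038815 raw tags each, and the co-culture-labelled libraries were the deeper ones (3740503 to 4038815 against 2873703 to 3029205). A blank cell, which was read as 0, filled every place without a tag, and the smallest value written was 2. Blood miRNAs, 4 of which were looked for, had no tag in any library. Of 5 epithelial miRNAs of the miR-200 family 3 had a tag, with a summed level of 3.22 to 15.7 raw tags per 1000000 tags of the library (RPM), and miR-200a-3p and miR-141-3p had none. Renal tubule miRNAs (3 of 4 with a tag) summed to 2250 to 2927 RPM under the control label and 3532 to 4654 under the co-culture label. Most of this sum was miR-30a-5p (log2 fold change 0.67, edgeR adjusted p = 1.87e-11), while miR-192-5p went the other way (-0.52, adjusted p = 7.86e-05) and miR-194-5p did not pass (-0.09, adjusted p = 0.901). Mesenchymal miRNAs (4 of 5 with a tag) summed to 578 to 722 and 398 to 407. This sum was nearly all miR-143-3p (-0.87, edgeR adjusted p = 4.00e-15), and the other 3, miR-145a-5p, miR-199a-3p and miR-199a-5p, had fitted values of 0.69 to 1.5 that did not pass. The part of these marker shifts in the values of the members was not tested.

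One library of each group lies between the other two. Among 212 sequences with at least 20 tags in each control-labelled library, replicate 2 was the middle value in 174 (82.1%), against 17 for replicate 1 and 21 for replicate 3. Among 236 such sequences in the co-culture-labelled libraries, replicate 1 was the middle value in 203 (86.0%), against 16 and 17. Their median chi-square against the pool of their group was 0.283 and 0.140, below the 0.455 that counting alone gives. The means were 2.34 and 0.374, where counting alone gives 1. By its mean, control-labelled replicate 2 was thus not below counting error. Whether these 2 middle libraries are libraries in their own right is not known, and the SDs and tests with n = 3 count them as such. The levels, arm shares and tests of the members are therefore also given without them, an alternative that was added after seeing the data.

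**Figure D2:**
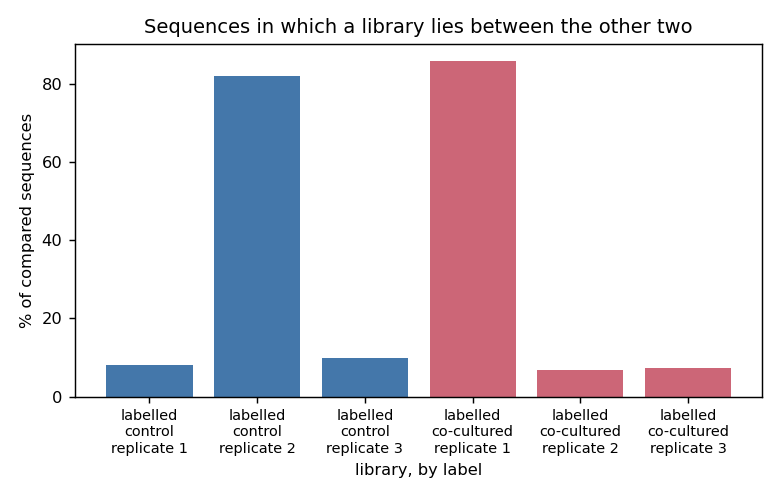
Share of sequences (y axis, %) in which a library is the middle one of its group, for the 6 libraries on the x axis. Control-labelled replicate 2 (82.1%) and co-culture-labelled replicate 1 (86.0%) stand far above the other 4.

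miR-877-3p had tags in the co-culture-labelled libraries alone. Replicates 1, 2 and 3 held 36, 41 and 47 raw tags, and the 3 control-labelled libraries were blank. In RPM the co-culture-labelled libraries stood at 9.62, 10.6 and 11.6, a mean of 10.6 ± 1.01 (SD, n = 3). These values are close to each other, and the groups do not overlap. In RNA from a whole culture, more cells with a miRNA and more of it per cell cannot be told apart. Against the floor of 3 tags per library, miR-877-3p was at least 10.5-fold higher in the co-culture-labelled libraries, and at least 10.6-fold higher without the 2 middle libraries.

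It rose in edgeR's quasi-likelihood test across all 974 sequences with at least 10 tags (adjusted p = 0.000345, Benjamini-Hochberg). The fitted log2 fold change of 8.13 (SE 1.85) is no bound, since it depends on how a group of blanks is modelled. miR-877-3p was 1 of 32 sequences called higher in the co-culture-labelled libraries (3.29% of those tested), 44 were called higher in the control-labelled ones (4.52%), and 76 were called in all (7.8%). The last count was 307 without control-labelled replicate 1, 40 without control-labelled replicate 2, 41 without co-culture-labelled replicate 1 and 490 without co-culture-labelled replicate 3, and miR-877-3p passed each time. Without the 2 middle libraries its call was lost (edgeR adjusted p = 0.445), and 7 sequences (0.749% of 935) were then called higher in the co-culture-labelled libraries.

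The other arm of the same intron, miR-877-5p, had a different pattern. It held 20 and 8 tags in control-labelled replicates 1 and 2, a blank in replicate 3, and 14, 18 and 9 tags in the co-culture-labelled libraries. In RPM the levels were 3.20 ± 3.51 (SD, n = 3) and 3.54 ± 1.22 (SD, n = 3), a ratio of 1.11. The groups overlap widely, with the highest and the lowest library both control-labelled. miR-877-5p did not pass the test (fitted log2 fold change 0.05, SE 1.68, edgeR adjusted p = 0.981), and without the 2 middle libraries the ratio was 0.987 (adjusted p = 0.989).

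The balance between the 2 arms of the Abcf1 intron thus differed between the groups by more than counting error. Since miR-877-3p was listed for its difference in these libraries, this shift is not independent evidence. miR-877-3p made up 72.0%, 69.5% and 83.9% of the tags of both arms in co-culture-labelled replicates 1 to 3, which is 124 of 165 tags (75.2%, exact 95% interval 67.8% to 81.5%). In the control-labelled libraries it was 0 of 28 pooled tags, which allows a share of up to 10.7% (3 tags of the pool). Without the 2 middle libraries the counts were 88 of 115 (76.5%, exact 95% interval 67.7% to 83.9%) and 0 of 20. By library it was 0 of 20 in replicate 1, which allows up to 15%, and 0 of 8 in replicate 2, which allows up to 37.5%, and replicate 3 had no tag of either arm. The lowest of the exact 95% bounds in the co-culture-labelled libraries was 56.1%. These intervals and limits cover counting error only, and tags without molecular identifiers are not independent molecules.

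miR-1839-3p was also written in the co-culture-labelled libraries alone, at a far lower level. Replicates 1, 2 and 3 held 8, 13 and 8 tags, and the 3 control-labelled libraries were blank. The mean was 2.49 ± 0.75 RPM (SD, n = 3), and the authors' normalized values, rounded to whole numbers, were 1, 2 and 1. The groups do not overlap, and miR-1839-3p was at least 2.46-fold higher in the co-culture-labelled libraries against the floor of 3 tags per library. Without the 2 middle libraries the bound was 2.55-fold.

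The difference did not pass the test (fitted log2 fold change 6.04, SE 3.56, edgeR adjusted p = 0.144). It passed without co-culture-labelled replicate 3 (adjusted p = 0.0378), when 490 sequences were called in all, and without the 2 middle libraries the adjusted p was 0.628.

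miR-1839-5p, the arm that carries nearly all tags of this scaRNA stem, was abundant in every library. It held 856, 925 and 931 tags in control-labelled replicates 1 to 3 and 1365, 1411 and 1377 in co-culture-labelled replicates 1 to 3. In RPM the levels were 305 ± 6.51 (SD, n = 3) and 357 ± 13.5 (SD, n = 3), a ratio of 1.17, with no overlap between the groups. An exact permutation test on these levels gave p = 0.1, two-sided, which is the smallest value that 3 against 3 allows. The edgeR test did not call it (fitted log2 fold change 0.08, SE 0.11, adjusted p = 0.564). Without the 2 middle libraries the ratio was 1.16 (edgeR adjusted p = 0.990). The median fitted log2 fold change of all tested sequences was 0.29 with the TMM factors used and 0.43 when libraries were scaled by total tags alone.

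miR-1839-3p was thus a trace product of its stem. It made up 0.583%, 0.913% and 0.578% of the tags of both arms in co-culture-labelled replicates 1 to 3, which is 29 of 4182 tags (0.693%, exact 95% interval 0.465% to 0.994%). In the control-labelled libraries it was 0 of 2712 pooled tags, which allows up to 0.111% (3 tags of the pool). Without the 2 middle libraries the counts were 21 of 2809 (0.748%, exact 95% interval 0.463% to 1.14%) and 0 of 1787, which allows up to 0.168%. Library by library the depth is not enough to part the groups, since 0 of 856, 925 and 931 tags allows up to 0.350%, 0.324% and 0.322%, and the exact 95% intervals of co-culture-labelled replicates 1 and 3 start at 0.252% and 0.250%.

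miR-1983 was present in both groups. It held 19 and 8 tags in control-labelled replicates 1 and 2 and a blank in replicate 3, and 41, 57 and 37 tags in co-culture-labelled replicates 1 to 3. The levels were 3.08 ± 3.33 RPM (SD, n = 3) in the control-labelled libraries and 11.6 ± 2.82 (SD, n = 3) in the co-culture-labelled ones, a ratio of 3.76. The co-culture-labelled libraries all lie above the control-labelled ones, while the control-labelled libraries differ among themselves by more than their own mean. The ratio was 3.61 without the 2 middle libraries.

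The difference did not pass the test over all sequences (fitted log2 fold change 1.80, SE 0.92, edgeR adjusted p = 0.144). It passed without control-labelled replicate 1 (fitted log2 fold change 2.91, adjusted p = 0.00346), when 307 sequences were called in all, and with blanks read as 1 tag (adjusted p = 0.0349), when 379 were. Without the 2 middle libraries the adjusted p was 0.628.

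**Figure D3:**
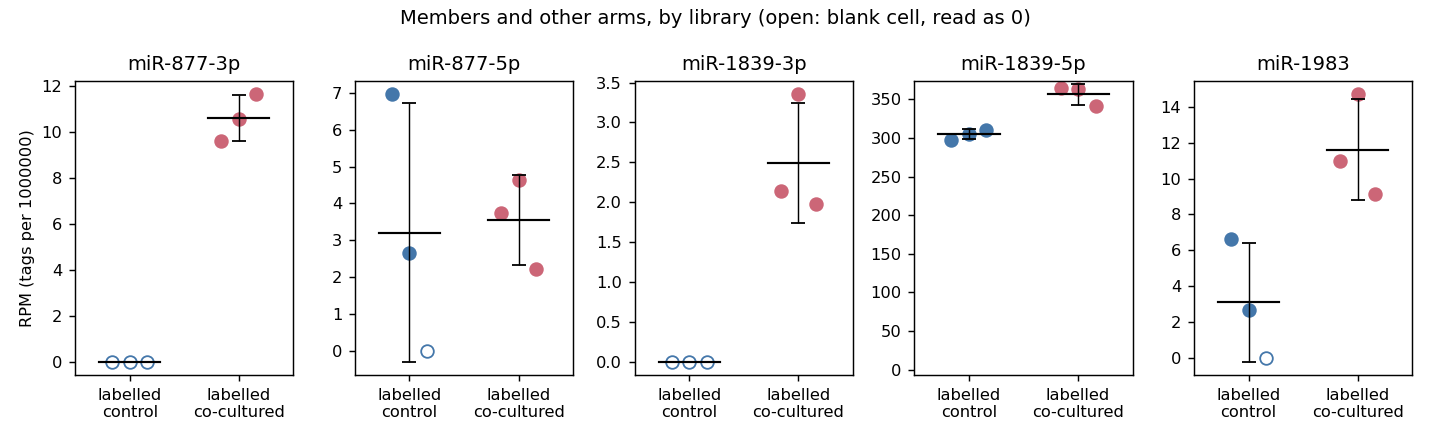
RPM (tags per 1000000, y axis, own scale in each panel) of the members and opposite arms in each library, grouped by label on the x axis. Points are libraries, open where the cell was blank and read as 0, horizontal lines are means and bars are SDs (n = 3). miR-877-3p and miR-1839-3p are blank in all 3 control-labelled libraries, and miR-877-5p overlaps between the groups.

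All 3 members had higher values in each co-culture-labelled library than in any control-labelled one, with an exact permutation p of 0.1 each, the smallest possible. The same held for 105 of the 974 tested sequences (10.8%). Since the members were listed for their difference in these libraries, nothing is read from their count. In the co-culture-labelled libraries, miR-1983 (11.6 RPM) and miR-877-3p (10.6) did not differ beyond their spread, and both lay above miR-1839-3p (2.49) in every library. The 3 mature sequences are 21 to 23 bases long, and these levels were not scaled by length.

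**Figure D4:**
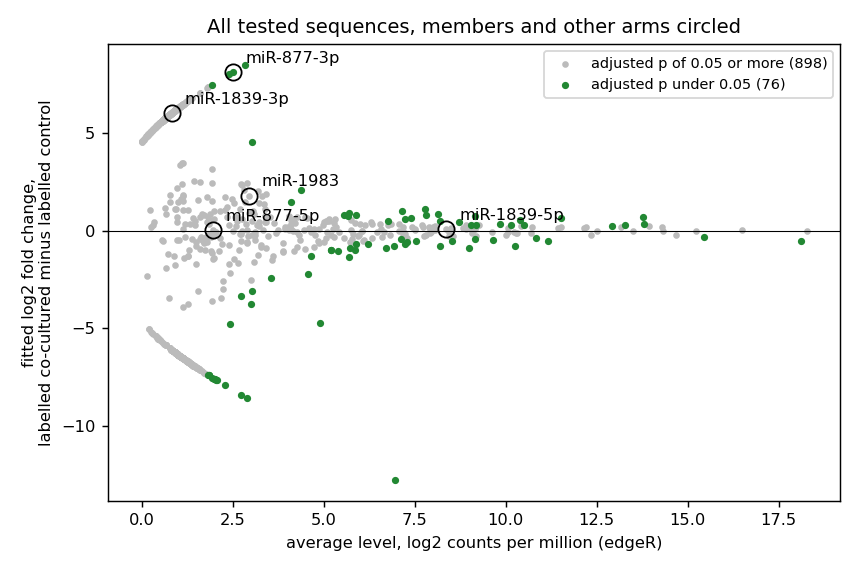
Fitted log2 fold change (y axis, labelled co-cultured minus labelled control) against the average level in log2 CPM (x axis, from edgeR, counts per 1000000) for all 974 tested sequences, with the 76 called ones in green and the members and opposite arms circled. The curved bands hold sequences that are blank throughout 1 group, where miR-877-3p and miR-1839-3p lie, and miR-877-3p is the only circled sequence that was called.

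Blank cells shape the pattern of the members, so they were counted over the whole table. A blank in all 3 control-labelled libraries with tags in all 3 co-culture-labelled ones, as in miR-877-3p and miR-1839-3p, was found in 18 sequences, 12 of them with a miRBase name. The reverse was found in 15, of which 5 have a miRBase name. A blank in control-labelled replicate 3 alone, with tags in the 3 co-culture-labelled libraries, as in miR-1983 and miR-877-5p, was found in 22, of which 18 have a miRBase name.

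Other miRNAs were compared with the members by the mean absolute difference of log2(normalized value + 1) over the 6 libraries. The closest to miR-877-3p was miR-324-5p (0.0371), with normalized values of 5, 5 and 5 in the co-culture-labelled libraries and 0 in the others, followed by an unnamed sequence of chromosome 19 (0.296) and miR-101b-3p (0.345). The closest to miR-1839-3p were miR-6997-5p and an unnamed sequence of chromosome 18, with the same rounded values (a difference of 0), and miR-132-5p (0.0975). The closest to miR-1983 was miR-188-5p (0.0692), with values of 2, 1 and 0 in the control-labelled libraries and 6, 7 and 5 in the co-culture-labelled ones, then miR-5099 (0.138) and miR-503-5p (0.252). No member was among the nearest of another.

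The members were then set beside other noncanonical miRNAs of the same 3 origins. Of the other mirtrons listed, miR-1981-5p was by far the most abundant, with 6070, 5861 and 5526 tags in the control-labelled libraries and 6184, 6654 and 6572 in the co-culture-labelled ones. In RPM these were 2112, 1935 and 1845 against 1653, 1716 and 1627, with no overlap. It fell in the co-culture-labelled libraries (log2 fold change -0.38, SE 0.09, edgeR adjusted p = 0.000876), opposite to miR-877-3p. The call on miR-1981-5p was lost when libraries were scaled by total tags alone (adjusted p = 0.133) and without the 2 middle libraries (adjusted p = 0.0774), with the same direction in both.

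Its other arm, miR-1981-3p, had 14 and 5 tags and a blank in the control-labelled libraries and 11, 27 and 11 in the co-culture-labelled ones (edgeR adjusted p = 0.718). miR-3102-3p.2-3p had 20 tags, a blank and 51 tags in co-culture-labelled replicates 1 to 3 and blanks in the control-labelled libraries (edgeR adjusted p = 0.0602). It passed in 6 alternatives, with total tags alone (adjusted p = 0.0407), with blanks read as 1 tag (0.0126), and without control-labelled replicate 1 (0.00129) or 3 (0.0134) or co-culture-labelled replicate 2 (0.00748) or 3 (0.0378). miR-3102-5p.2-5p had the same places filled, with 4 and 6 tags. miR-3102-3p, with 10, 25 and 35 tags against 28, 36 and 26, overlapped between the groups, as did miR-702-5p with 3, 10 and 14 tags against 7, 14 and a blank. miR-1982-3p had a blank, 6 and 11 tags in the control-labelled libraries and blanks in the co-culture-labelled ones (edgeR adjusted p = 0.144), and passed without co-culture-labelled replicate 3 (0.0394) and with blanks read as 1 tag (0.0349). Of the 9 mirtron arms tested, miR-877-3p rose, miR-1981-5p fell and 7 did not pass, with a median fitted log2 fold change of 0.05.

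Among miRNAs from snoRNAs and scaRNAs, miR-664-5p had 26, 23 and 15 tags in the control-labelled libraries and 36, 37 and 41 in the co-culture-labelled ones (edgeR adjusted p = 0.759). miR-664-3p, like miR-1839-3p, was written in co-culture-labelled libraries alone, with 5 and 13 tags in replicates 1 and 2 and a blank in replicate 3 (edgeR adjusted p = 0.146). miR-1291 was blank throughout. None of the 4 arms tested passed over all 6 libraries in edgeR or DESeq2. Over all 974 sequences, with the filter and blanks as set, 0 of the 4 had an unadjusted p under 0.05 in either. With miRBase-named sequences alone, miR-1839-3p had an unadjusted edgeR p of 0.0289 (adjusted p = 0.133). It passed in limma with a pseudocount of 0.1 and, as given above, in edgeR without co-culture-labelled replicate 3. miR-1983 was the only miRNA of the tRNA list with an entry in the raw table.

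Of miRNAs made by other noncanonical routes, miR-320-3p and miR-484, whose precursors arise without Drosha, had 687, 697 and 635 tags against 825, 852 and 821 and 540, 496 and 462 tags against 709, 687 and 869, control-labelled first. Neither passed (edgeR adjusted p = 0.144 and 0.689), though miR-320-3p did, at a log2 fold change of -0.28, with edgeR's own filter on low counts (adjusted p = 0.0259). miR-344-3p had 15 and 8 tags and a blank against 25 tags, a blank and 51 tags, miR-344b-3p had 10 and 3 tags and a blank in the control-labelled libraries alone, and miR-344d-3p had 2 and 3 tags in the co-culture-labelled libraries, too few to test. Over the 4 lists, 18 arms were tested, of which 1 rose and 1 fell, beside 7.8% called over all sequences (2 rose and 0 fell with total tags alone, 4 passed without control-labelled replicate 1 and 5 without co-culture-labelled replicate 3), with a median log2 fold change of 0.19 against 0.29 over all 974 sequences. Of the 405 tested sequences with a miRBase name, as all 18 arms have, 29 rose and 32 fell in this fit, with a median of 0.13. With sequences that are blank throughout 1 group placed at their bound, the medians of the 18 arms and of all 974 sequences were 0.07 and 0.17.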

How the data were processed

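The authors deposited raw tag counts per library, a table of normalized tag counts rounded to whole numbers (treated as a score), and lists of up-regulated and down-regulated miRNAs. To within 1, nearly all normalized values equal the raw counts times 1 factor per library. The authors' fold, p and FDR columns were not used. Bowtie 0.12.2 and the builds mm8 and mm9 appear, with no role, in the submitters' processing notes. The sources used here do not give the steps of trimming, annotation and counting. Coordinates are those of GRCm38.

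Entries were merged by mature sequence and blanks read as 0. Raw counts of sequences with at least 10 tags over the 6 libraries were tested by edgeR 4.0.16 (quasi-likelihood, TMM, two-sided, Benjamini-Hochberg, threshold 0.05) in R 4.3.3, after a test on simulated data. The simulated counts had a smaller spread between libraries than the real ones, so that test does not give the error rates of these data. Each SE given with an edgeR fold was back-computed, as the absolute fitted log2 fold change over the square root of the F statistic. For a sequence blank throughout a group it depends, like the fold, on how blanks are modelled. Alternatives used limma 3.58.1 with pseudocounts of 0.1, 1 and 5, DESeq2 1.42.0, other filters, a replicate block and left-out libraries. Exact permutation tests and exact (Clopper-Pearson) intervals used scipy 1.17.1. RPM are raw tags per 1000000 tags of the library's distinct sequences (2873703 to 4038815 in all).

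The text names the 3 members, their opposite arms, and the 3 nearest miRNAs of each member. It also names every arm of the 4 noncanonical lists that was in the raw table. Marker miRNAs are given as lists, some of them also singly, and miR-146a-5p is named for the group labels. Members and lists were chosen with earlier results of these data known. Sequences were matched to RefSeq (GRCm38.p6) and GENCODE M21. Of 492 miRBase-named sequences 404 have a hairpin in the RefSeq table.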

Additional observations from a re-analysis of the deposited data

How the results depend on the processing

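Of the 3 members 1 was called (miR-877-3p). The count was 1 to 2 when each library was left out, 2 with a pseudocount of 0.1 and with blank cells read as 1 tag, and 0 without the 2 middle libraries or with blank cells left out in limma, where miR-1983 alone could be fitted. Both readings of blank cells, the miRBase-named subset and the removal of the 2 middle libraries were chosen after seeing the data. miR-877-3p kept its call in 18 of the 19 alternatives that could be fitted, with adjusted p from 3.36e-06 to 0.445. miR-1839-3p passed in 2 of 17, without co-culture-labelled replicate 3 and with a pseudocount of 0.1 (adjusted p = 0.0389, limma). miR-1983 passed in 2 of 20, without control-labelled replicate 1 and with blanks read as 1 tag (adjusted p = 0.0349, edgeR). All 3 stayed positive in each of these, which is no test of direction, since their groups do not overlap in level. miR-877-3p and miR-1839-3p are blank in every control-labelled library. DESeq2 gave no adjusted p for miR-1839-3p.

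The fitted log2 fold change of miR-877-5p was -0.53 to 1.21 when each library was left out, -0.13 without the 2 middle libraries and -0.34 with blanks left out. That of miR-1839-5p was -0.033 without co-culture-labelled replicate 1, the lowest, to 0.13 among left-out libraries, and -0.0039 without the 2 middle libraries. Neither arm was called under any alternative. The 18 arms of the noncanonical lists gave 2 calls, 2 to 5 when each library was left out, 6 with blanks read as 1 tag, and 0 without the 2 middle libraries or with blanks left out. Over all sequences 76 were called, 40 to 490 when each library was left out, 48 with a pseudocount of 5, 379 with blanks read as 1 tag, 50 with miRBase-named sequences alone and 18 without the 2 middle libraries. The split of higher against lower calls, 32 and 44, became 56 and 36 with total tags alone, 34 and 34 with a pseudocount of 0.1 and 53 and 26 with blanks left out. The causes were not tested, beyond the fewer libraries or sequences that some alternatives hold.

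No pairing of the libraries by replicate number was seen, and it is not excluded. Deviations of same-numbered libraries from their group means correlated at -0.164, -0.0243 and 0.0743 across 244 sequences, which are not independent replicates. The pairs numbered 1 and 2 each hold a middle library, which deviates little from its group and so could hardly show a pairing. With the replicate block 62 sequences were called, and no call on a member changed (miR-877-3p adjusted p = 0.00155, edgeR). At these depths 3 tags are 0.990 to 1.04 RPM in the control-labelled libraries, which limits what a blank can show for miR-1839-3p.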

Other observations

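Blank cells fell in the libraries in an uneven way. Of 347 sequences blank in exactly 1 control-labelled library, 190 were blank in replicate 1, 157 in replicate 3 and 0 in replicate 2, the middle library of that group. Of 416 sequences blank in exactly 1 co-culture-labelled library, 187 were blank in replicate 2, 229 in replicate 3 and 0 in replicate 1, the middle library there. miR-1983 and miR-877-5p belong to the first set, with a blank in control-labelled replicate 3. Of the 77 miRBase-named sequences with that blank, 72 had more tags in replicate 1 than in replicate 2, with medians of 13 and 5 tags. miR-1983 (19 and 8 tags) and miR-877-5p (20 and 8 tags) follow this order.

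Hairpins that fill an annotated intron exactly were also looked up over the whole table, a list made after the values were seen. They hold 11 arms in the raw table, of which 8 had a tag. Besides the arms named above, miR-6944-3p had 5 and 2 tags and a blank in the control-labelled libraries against 10, 20 and a blank, miR-7068-3p had 2 and 2 tags and a blank against 9, 6 and 6, and miR-7091-3p had blanks against 6 tags, a blank and 17 tags. None of these 3 passed (edgeR adjusted p = 0.656, 0.613 and 0.144). Of 12 arms with a tag from hairpins that overlap an annotated snoRNA or scaRNA, 10 were tested, and miR-1843b-5p was the only one called. It had 54, 61 and 43 tags in the control-labelled libraries and 13, 22 and 8 in the co-culture-labelled ones (log2 fold change -2.41, SE 0.65, edgeR adjusted p = 0.00422). The call was lost without control-labelled replicate 2 (adjusted p = 0.243) or co-culture-labelled replicate 1 (0.0769), without both (0.628) and in DESeq2 (0.0531).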
